A study of Mus musculus with 4 samples.

Results

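Fibroblast growth factor (FGF) signalling was followed in the mouse mammary rudiment through 10 genes, chosen by name: the ligands Fgf2, Fgf7 and Fgf10, the receptors Fgfr1, Fgfr2 and Fgfr3, and the feedback inhibitors Spry1, Spry2, Spry4 and Dusp6. Each of the 10 had 1 row in the gene lists of all stages, which hold 31053 genes at E15.5 and 32285 at the other stages. The samples were mammary rudiments of embryonic days E13.5, E14.5 or E15.5 and newborn (P0) mammary glands, all from untreated females of the strain labelled WT C57B6 mice. Rudiments of several animals were pooled into 1 single-cell library per stage, after cells bearing CD45, CD31 or Ter119 had been sorted away and, at P0, red cells lysed. The sort sets how many epithelial and mesenchymal cells a library holds, so these numbers are no result. The P0 glands were also digested with more collagenase and less hyaluronidase than the embryonic rudiments. Each stage was collected in its own dissection session, so stage, session and library cannot be told apart. Nor can P0 be told apart from its digestion. No stage has a second library, so no test was possible. Intervals below are exact 95% intervals of UMI counts (unique molecular identifiers, 1 per captured transcript) and cover counting error only, not the spread between animals.

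A cell was kept if it had 5000 or more UMIs, of which mitochondrial genes made up no more than 6%. This left 235, 76, 816 and 503 cells in stage order, with 2111282 to 21559040 UMIs per library, and 0 kept barcodes were shared between libraries. A cell was called epithelial or mesenchymal by the larger of its summed UMIs of Epcam, Krt8, Krt18, Krt5 and Krt14 or of Col1a1, Col1a2 and Col3a1. This gave 98, 45, 532 and 230 epithelial and 135, 31, 283 and 273 mesenchymal cells in stage order. A list of 7 other epithelial markers summed to between 1096 and 2069 CPM (UMIs of a gene per 1000000 UMIs of the group) in epithelium and 3.58 to 71.4 CPM in mesenchyme, and 7 other mesenchymal markers to between 1929 and 8638 CPM in mesenchyme and 35.6 to 91.1 CPM in epithelium. Erythroid markers summed to 10383 CPM in the P0 mesenchyme, against at most 17.6 CPM in any other group, and an immune list to 112 CPM there against 3.32 to 11.3 CPM elsewhere. Their part in the P0 values was not tested. A doublet caller marked 11 of the 76 cells at E14.5 and 0 to 3 at the other stages.

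FGF ligands are secreted proteins that bind heparan sulphate and pair receptor tyrosine kinases on nearby cells. In many branching organs the mesenchyme makes FGF7 and FGF10, and these ligands bind the IIIb splice form of FGFR2, which is made in epithelium, whereas FGF2 prefers the IIIc forms found in mesenchyme. FGF10 and the IIIb form of FGFR2 are needed for most mammary placodes to form. Active receptors switch on the ERK cascade, and ERK switches on its own brakes: Sprouty proteins act upstream of ERK, and DUSP6 is a phosphatase that removes the phosphates from ERK. Other receptor tyrosine kinases feed into the same cascade, so these brakes are not read-outs of FGF alone. The libraries count transcripts at their 3′ ends, so the IIIb and IIIc forms were counted together.

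The stretches of DNA upstream of 4 of the genes are given here because these genes carry the main contrasts below: a ligand of the mesenchyme, the receptor that was highest in embryonic epithelium, and a pair of feedback genes whose levels did not move together. Each is the 250 bases before the start site in RefSeq (GRCm38.p6), read 5′ to 3′ on the gene's strand. For Fgf10 and Fgfr2 the RefSeq start lies inside the longer GENCODE gene records given below. The promoter table matched 8 of the 10 genes with 9 windows, Fgfr3 having 2, and Fgfr1 and Spry4 were not among them. Capitals mark matches to CGGAAG on either strand (cttccg where the match is on the opposite strand). This is a 6-base form of sites for ETS factors, which act downstream of ERK. Shorter runs such as GGAA, which also occur in these windows, were not marked.
Fgf10 (chr13:118714449-118714698, + strand): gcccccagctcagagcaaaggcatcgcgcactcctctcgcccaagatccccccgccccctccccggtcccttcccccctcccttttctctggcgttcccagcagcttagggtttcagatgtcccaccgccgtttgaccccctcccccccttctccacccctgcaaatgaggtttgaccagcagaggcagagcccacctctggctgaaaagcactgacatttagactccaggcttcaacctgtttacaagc
Fgfr2 (chr7:130266809-130267058, - strand): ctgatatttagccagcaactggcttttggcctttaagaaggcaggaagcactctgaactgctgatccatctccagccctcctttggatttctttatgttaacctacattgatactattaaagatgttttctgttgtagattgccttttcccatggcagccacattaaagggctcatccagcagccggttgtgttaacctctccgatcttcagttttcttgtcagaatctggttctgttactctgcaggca
Spry2 (chr14:105896820-105897069, - strand): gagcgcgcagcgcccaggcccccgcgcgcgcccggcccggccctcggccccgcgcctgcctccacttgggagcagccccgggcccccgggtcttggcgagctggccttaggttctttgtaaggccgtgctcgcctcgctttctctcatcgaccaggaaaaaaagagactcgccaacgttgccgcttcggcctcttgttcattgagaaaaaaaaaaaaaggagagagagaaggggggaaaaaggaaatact
Dusp6 (chr10:99262981-99263230, + strand): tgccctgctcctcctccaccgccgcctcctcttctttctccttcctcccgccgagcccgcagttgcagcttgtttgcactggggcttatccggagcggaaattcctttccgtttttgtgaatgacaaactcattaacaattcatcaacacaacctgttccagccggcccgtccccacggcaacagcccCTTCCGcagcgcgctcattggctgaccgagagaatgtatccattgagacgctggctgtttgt
The Dusp6 window held the 1 match among the 9 windows, starting 62 bases before the start site and on the opposite strand, and 13.6% of all 32851 windows of this length in the table held at least 1. The motif TGANTCA of AP-1 and a 10-letter CArG box of serum response factor, searched on both strands, matched 0 of the 9 windows, against 6.75% and 0.0609% of all windows. A match is a run of letters and not evidence of binding, and no match says only that these letters are not in this window.

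The ligands were found almost wholly in mesenchyme. Fgf10 (ENSMUSG00000021732, GRCm38 chr13:118669791-118792115, + strand) reached 15.8 CPM (interval 11.2 to 21.7) in mesenchyme at E13.5, then 37.0 CPM (25.1 to 52.5), 5.51 CPM (3.94 to 7.50) and 30.3 CPM (23.9 to 37.9) at P0. In epithelium it had 0, 2, 2 and 1 UMIs in stage order. The level in mesenchyme was at least 10.7-fold higher than in epithelium at E13.5, where 3 counts stand in for the 0, with an exact lower limit of 8.32. The ratio was 23.5 (5.99 to 203), 39.4 (10.2 to 336) and 79.2 (13.8 to 3170.2) at the later stages, all on 1 or 2 epithelial UMIs. Fgf10 was lowest in the mesenchyme of E15.5: the level there was 0.349 times that at E13.5 (0.218 to 0.559), and P0 was 5.50 times E15.5 (3.70 to 8.28). That last ratio was 3.38 (2.02 to 5.65) without 8 clusters, a setting chosen after seeing the data and given below beside the main calls it changed. These were skin-like, periderm-like or had genes of another tissue among their leading genes, but clusters with muscle genes there were kept. Also kept were an E13.5 mesenchymal cluster with the mammary epithelial marker Sostdc1 and a P0 mesenchymal cluster with the endothelial marker Pecam1 among their leading genes. The P0 mesenchymal clusters left out, of 63 and 47 cells, were nearest to Col15a1 fibroblasts, with 5 and 4 of 6 markers raised, so fibroblasts may be removed too. In this setting the epithelium of E13.5 and of E14.5 is the mammary-like cluster alone, of 22 and 32 cells. In mesenchyme, 1 cluster with dermal markers raised held 30 of the 38 Fgf10 UMIs at E13.5, and another 33 of 40 at E15.5. These clusters made up 54.1% and 26.1% of the mesenchymal cells. The part of this mix in the lower E15.5 level was not tested.

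Fgf7 (ENSMUSG00000027208, chr2:126034658-126091185, + strand), the other ligand of the IIIb receptor, had 41.5, 33.4, 19.0 and 55.4 CPM in mesenchyme from E13.5 to P0 and 0, 0, 3 and 1 UMIs in epithelium. It was above Fgf10 at E13.5, E15.5 and P0, with intervals apart, while at E14.5 the pair overlapped (22.2 to 48.3 for Fgf7). Like Fgf10, it was lowest at E15.5, at 0.458 times its E13.5 level (0.351 to 0.598). The clusters with dermal markers held 63 of the 100 Fgf7 UMIs at E13.5 and 86 of 138 at E15.5, so the limit given for Fgf10 holds here too. Fgf2 (ENSMUSG00000037225, chr3:37348346-37410108, + strand) had no UMI in epithelium except 1 at E14.5. Its mesenchymal levels of 6.23, 3.58 and 5.79 CPM at the embryonic stages had overlapping intervals, and P0 was higher at 31.9 CPM (25.3 to 39.7), 5.51 times E15.5 (3.75 to 8.21). Of the exon bases of Fgf2 in the GENCODE annotation, 255 also lie in Gm43439 on the same strand, so reads there may not be assigned to 1 gene. Whether the references used for counting hold this overlap was not checked.

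**Figure D1:**
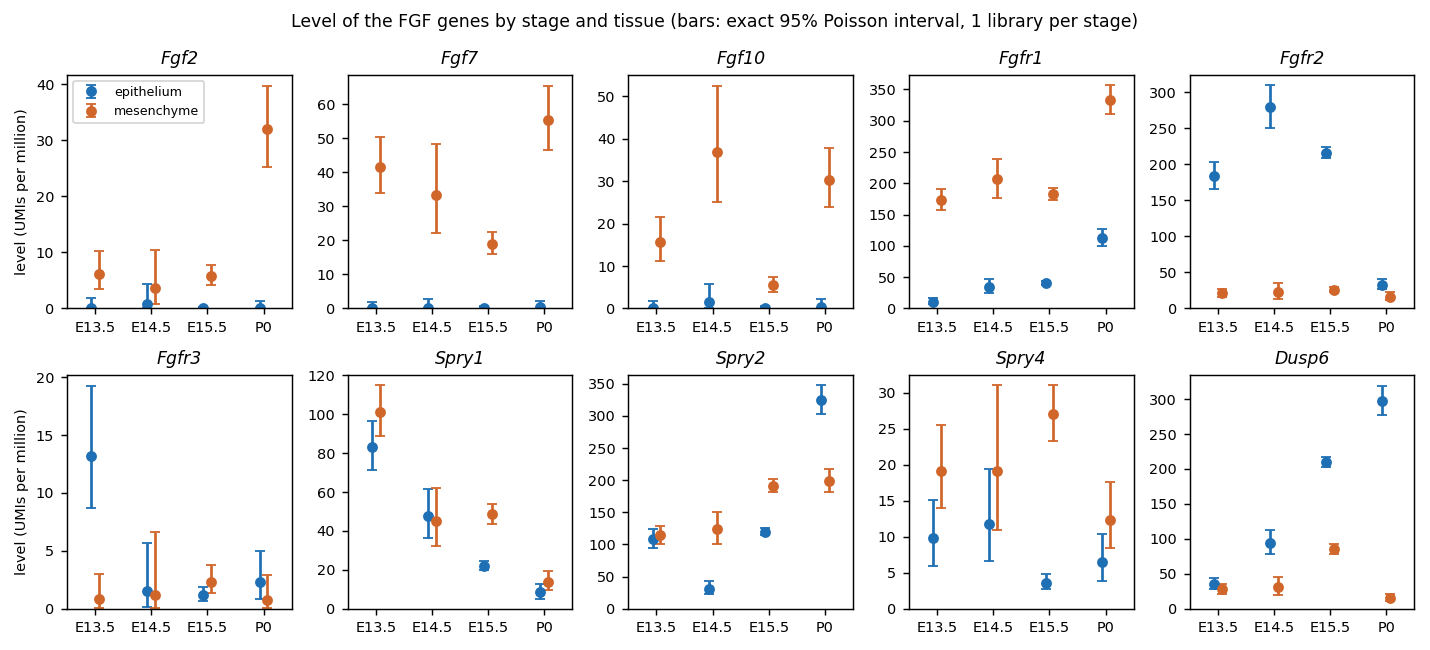
Level of each of the 10 genes in CPM (y axis, from 0, a scale for each gene) at the 4 stages (x axis) in epithelium (blue) and mesenchyme (orange), 1 library per stage, with exact 95% Poisson intervals as bars. The ligands sit near 0 in epithelium throughout, Fgfr2 falls from 216 to 32.9 between E15.5 and P0 in epithelium, and Dusp6 rises from 35.3 to 298 over the 4 stages in epithelium.

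Fgfr2 was the main receptor gene of embryonic epithelium and Fgfr1 that of mesenchyme at every stage, and at P0 Fgfr1 was the main one in epithelium too. Fgfr2 (ENSMUSG00000030849, chr7:130162451-133123350, - strand) had 184 CPM (166 to 203), 279 CPM (251 to 309) and 216 CPM (209 to 224) in epithelium at the embryonic stages and 32.9 CPM (26.3 to 40.6) at P0. In mesenchyme it had 20.8, 22.7, 25.8 and 16.3 CPM. Epithelium over mesenchyme was 8.85 (6.57 to 12.1), 12.3 (7.76 to 20.7), 8.39 (7.24 to 9.78) and 2.01 (1.37 to 2.99) at the 4 stages. The GENCODE record of Fgfr2 runs through 36 other genes on its strand, and 314 of its exon bases are shared with Ctbp2, so reads in those bases may be uncertain. Whether the references used for counting hold this record was not checked.

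Fgfr1 (ENSMUSG00000031565, chr8:25513654-25575718, + strand), the main partner of FGF2, ran the other way. Mesenchyme had 173, 206, 183 and 333 CPM, and the epithelial level was 10.8 CPM (6.75 to 16.3), 34.6 CPM (25.1 to 46.4), 40.9 CPM (37.7 to 44.4) and 113 CPM (100.3 to 126) in stage order. The mesenchymal excess was 16.1-fold (10.5 to 25.9), 5.97-fold (4.27 to 8.52), 4.47-fold (4.05 to 4.93) and 2.95-fold (2.58 to 3.38) at the 4 stages. In epithelium, P0 over E13.5 was 10.5 (6.79 to 16.97) for Fgfr1 and 0.179 (0.140 to 0.227) for Fgfr2, between libraries counted with the same software version and gene list. In the mammary-like cluster of E13.5 alone, Fgfr1 had 29.6 CPM (14.8 to 53.0), on 11 UMIs. Without the 8 clusters, P0 over E13.5 in epithelium was 3.81 (2.10 to 7.71) for Fgfr1, and the mesenchymal excess at E13.5 was 5.85-fold in place of 16.1-fold.

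Of the summed receptor UMIs in epithelium, Fgfr2 held 88.4% (85.0 to 91.3), 88.5% (85.0 to 91.5), 83.7% (82.5 to 84.9) and 22.2% (18.2 to 26.7) from E13.5 to P0. At P0, Fgfr1 held 76.2% (71.7 to 80.4) in its place. In mesenchyme Fgfr1 held 88.9%, 89.6%, 86.7% and 95.1% at the 4 stages. The receptor sum in epithelium was 208, 315, 258 and 148 CPM, so P0 was 0.573 times E15.5 (0.515 to 0.637).

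**Figure D2:**
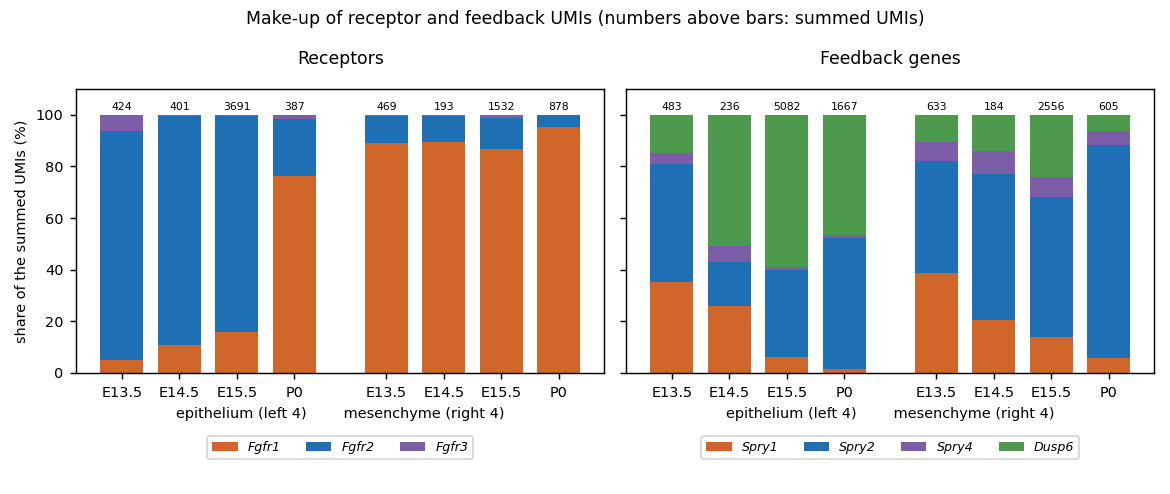
Share of the summed UMIs (y axis, %) of the 3 receptors (left panel) and the 4 feedback genes (right panel), for the 4 stages in epithelium (left 4 bars) and mesenchyme (right 4 bars), with the summed UMIs above each bar. Fgfr2 fills 83.7% or more of the embryonic epithelial bars and 22.2% at P0, and Dusp6 fills 14.9% of the epithelial feedback bar at E13.5 and 46.7% to 59.0% later. The E13.5 share depends on the cells counted: Dusp6 was 37.8% (27.3 to 49.2) of feedback UMIs in the mammary-like cluster. In the periderm-like cluster it was 1 of 218 UMIs.

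Fgfr2 in mesenchyme and Fgfr1 in epithelium were set beside the summed markers of the other tissue, as a measure of RNA from other cells. Epithelial markers in mesenchyme stood at 0.824%, 0.327%, 2.71% and 3.45% of their epithelial level from E13.5 to P0, and Fgfr2 in mesenchyme at 11.3%, 8.13%, 11.9% and 49.7% of its epithelial level. Mesenchymal markers in epithelium stood at 3.89%, 2.87%, 2.07% and 0.412% of their mesenchymal level, and Fgfr1 in epithelium at 6.22%, 16.7%, 22.4% and 33.9%. Both receptors were above the summed list at every stage, but at E13.5 2 of the 7 single mesenchymal markers, Dcn and Col5a1, were above Fgfr1.

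Fgfr3 (ENSMUSG00000054252, chr5:33721674-33737068, + strand) was scarce, with 13.2 CPM (8.72 to 19.2) in epithelium at E13.5 and at most 2.34 CPM in every other group. Epithelium over mesenchyme was 15.9 (4.002 to 138) at E13.5, on 27 against 2 UMIs, and the intervals of the other stages included 1.

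The feedback genes did not form a single pattern. Their sum was 237 CPM (216 to 259), 185, 356 and 638 CPM (607 to 669) in epithelium and 263 CPM (243 to 284), 220, 352 and 241 CPM (222 to 261) in mesenchyme. Epithelium over mesenchyme was 0.900 (0.798 to 1.02), 0.844 (0.693 to 1.03), 1.01 (0.963 to 1.06) and 2.64 (2.41 to 2.91). So over all cells, without scaling, the tissues were apart beyond counting error only at P0 among the 4 stages. At E15.5 the ratio was 1.06 without the 8 clusters and 1.08 relative to the median of all genes. No interval is given for these 2 values.

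Dusp6 (ENSMUSG00000019960, chr10:99263231-99267489, + strand), the ERK phosphatase, rose in epithelium from 35.3 CPM (27.6 to 44.4) at E13.5 to 94.2 CPM (78.1 to 113), 210 CPM (202 to 218) and 298 CPM (277 to 319). In mesenchyme it was 27.8, 31.0, 85.1 and 15.6 CPM. The ratio of epithelium to mesenchyme was 1.27 (0.896 to 1.80), 3.04 (1.98 to 4.84), 2.47 (2.26 to 2.69) and 19.1 (13.9 to 27.1) in stage order. Mesenchymal Dusp6 fell between E15.5 and P0 to 0.183 times its level (0.129 to 0.253), while the mesenchymal ligands Fgf2, Fgf7 and Fgf10 rose. The size of the epithelial change from E13.5 depends on which cells are counted there, since the periderm-like cluster had 1 Dusp6 UMI and the mammary-like cluster 83.5 CPM (56.7 to 118). Without the 8 clusters, the ratio of epithelium to mesenchyme was 3.00 (1.89 to 4.66) at E13.5 and 31.5 (18.99 to 56.6) at P0, and P0 over E13.5 in epithelium was 3.56 (2.49 to 5.28) in place of 8.44.

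Spry2 (ENSMUSG00000022114, chr14:105891947-105896819, - strand) had 108, 31.4, 120 and 325 CPM in epithelium and 115, 124, 191 and 199 CPM in mesenchyme. The high P0 level was not shared by all epithelial clusters: a proliferative cluster with Cited1, 19.6% of the cells, held 65 of the 850 UMIs. Of the 221 epithelial UMIs at E13.5, 125 were in the periderm-like cluster, and the mammary-like cluster had 35.0 CPM (18.6 to 59.9). Without the 8 clusters, epithelium over mesenchyme at E13.5 was 0.305 (0.161 to 0.531) in place of 0.945, and E14.5 over E13.5 in epithelium was 0.849 (0.418 to 1.81) in place of 0.290. Over all cells, Spry2 had the highest level of the Sprouty genes in both tissues at each stage except in epithelium at E14.5, where Spry1 had 47.9 CPM, although the intervals of Spry1 and Spry2 overlapped there and at E13.5 in both tissues. Spry1 (ENSMUSG00000037211, chr3:37639947-37644598, + strand) fell in both tissues, from 83.3 to 8.41 CPM in epithelium and from 101 to 13.96 CPM in mesenchyme between E13.5 and P0, which is 0.101 (0.0617 to 0.158) and 0.138 (0.0938 to 0.197) of the starting level. Spry4 (ENSMUSG00000024427, chr18:38586247-38601415, - strand) was low, with 3.64 to 11.8 CPM in epithelium and 12.4 to 27.0 CPM in mesenchyme, and its widest gap was at E15.5, where mesenchyme was 7.42-fold higher (5.44 to 10.3).

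**Figure D3:**
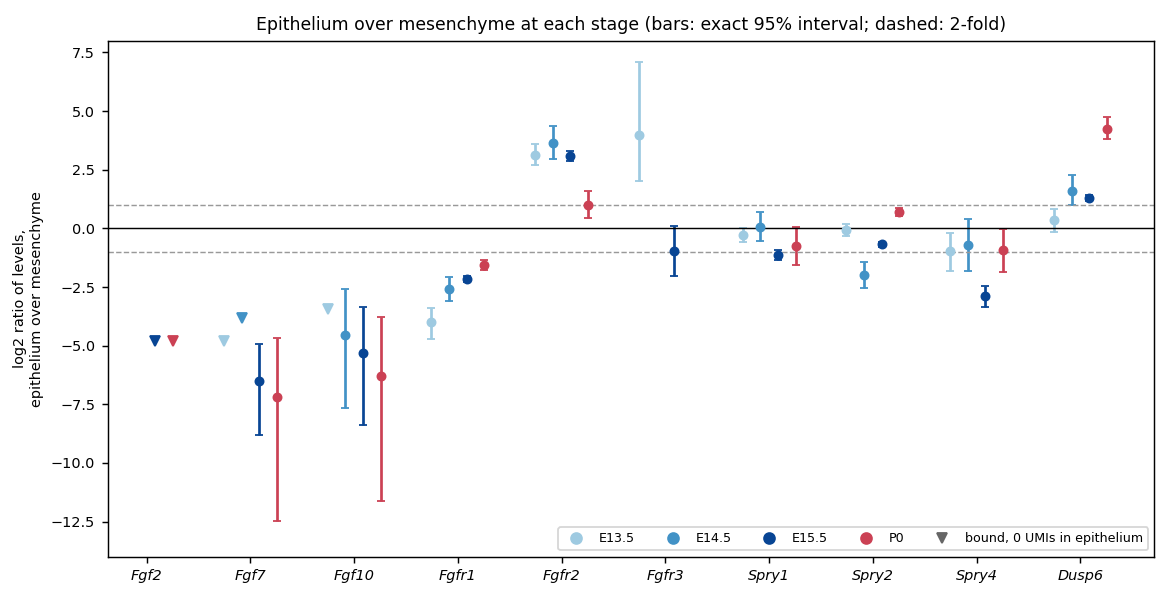
Log2 ratio of the level in epithelium over that in mesenchyme (y axis) for each gene (x axis) and stage (colours), with exact 95% intervals, triangles for bounds where epithelium had 0 UMIs, and genes with under 20 UMIs in the pair left out. The ligands lie far below 0 at every stage shown, and Fgfr2 lies above 0 at each stage and nearest to 0 at P0. Dusp6 lies at 0.34, 1.60, 1.30 and 4.26 in stage order, and its E13.5 value depends on which cells are counted there.

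Counted against all genes with at least 20 UMIs in a pair of groups, past 2-fold was called. At E13.5, 2 of 9 measured members were higher in epithelium (Fgfr2, Fgfr3), where 10.3% of all genes were, and 3 were lower (Fgf7, Fgf10, Fgfr1), where 21.9% were. Without the 8 clusters, Dusp6 was past 2-fold higher and Spry2 lower at E13.5, while Fgfr3, with 2 UMIs in each tissue, and Fgf10, at a bound of 1.95-fold, were no longer called. At E14.5, 2 of 8 were higher (Fgfr2, Dusp6; 14.7% of all genes) and 4 lower (Fgf7, Fgf10, Fgfr1, Spry2), where 17.5% were. At E15.5, 2 of 10 were higher (Fgfr2, Dusp6), where 16.8% of all genes were, and 6 lower (Fgf2, Fgf7, Fgf10, Fgfr1, Spry1, Spry4), where 22.5% were. At P0, 2 of 9 were higher (Fgfr2, Dusp6), where 24.7% of all genes were, and 4 lower (Fgf2, Fgf7, Fgf10, Fgfr1), where 18.9% were. The shares of members called higher lie near the background at E15.5 and P0. The median log2 ratio of the members was -0.28, -1.34, -1.65 and -0.93 at the 4 stages, beside -0.18, 0.02, -0.10 and 0.30 for all genes.

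Between stages in epithelium, E15.5 over E13.5 had 2 of 7 members higher (Fgfr1, Dusp6), where 14.9% of genes were, and 3 lower (Fgfr3, Spry1, Spry4), where 14.8% were. P0 over E15.5 had 2 higher (Fgfr1, Spry2), where 15.0% were, and 2 lower (Fgfr2, Spry1), where 18.5% were. In mesenchyme, E15.5 over E13.5 had 1 of 9 higher (Dusp6), where 8.16% of genes were, and 3 lower (Fgf7, Fgf10, Spry1), where 13.8% were. The part of the mix of mesenchymal clusters in the Fgf7 and Fgf10 calls was not tested. P0 over E15.5 had 3 of 9 higher (Fgf2, Fgf7, Fgf10), where 14.3% were, and 3 lower (Spry1, Spry4, Dusp6), where 28.2% were. The steps through E14.5, which rests on 45 epithelial and 31 mesenchymal cells, follow. In epithelium, E14.5 over E13.5 had 2 of 7 members higher (Fgfr1, Dusp6), where 12.1% of genes were, and 2 lower (Fgfr3, Spry2), where 4.96% were. Between the mammary-like clusters alone, none of these 4 was past 2-fold: the ratio was 1.44 (0.719 to 3.15) for Fgfr1, 1.54 (1.02 to 2.37) for Dusp6 and 0.849 for Spry2, and Fgfr3 had 0 and 2 UMIs. Spry4, with 10 UMIs in each, was then past 2-fold lower at 0.441 (0.165 to 1.18). Without the 8 clusters, E15.5 over E13.5 was 1.48 (0.819 to 2.98) for Fgfr1, so that this call was lost, 2.54 (1.78 to 3.75) for Dusp6 and 3.38 (1.97 to 6.36) for Spry2, which was then past 2-fold, and Fgfr3 had too few UMIs to be called. In the same setting E15.5 over E14.5 was 1.65 (1.36 to 2.02) for Dusp6, under 2-fold. Over all cells, E15.5 over E14.5 had 2 of 6 higher (Spry2, Dusp6), where 8.07% were, and 2 lower (Spry1, Spry4), where 19.4% were. In mesenchyme, E14.5 over E13.5 had 1 of 8 higher (Fgf10), where 6.03% were, and 1 lower (Spry1), where 5.88% were. E15.5 over E14.5 had 1 of 9 higher (Dusp6), where 7.46% were, and 1 lower (Fgf10), where 15.55% were. All comparisons with E15.5 involve a library counted with another software version and gene list. The direct step from E13.5 to P0, added after the data had been seen, had 3 of 7 epithelial members higher (Fgfr1, Spry2, Dusp6), where 17.4% of genes were, and 3 lower (Fgfr2, Fgfr3, Spry1), where 20.2% were. With those clusters left out, the 3 lower were Fgfr2, Spry1 and Spry4 at 0.241 (0.104 to 0.590). In mesenchyme it had 1 of 9 higher (Fgf2), where 14.3% were, and 1 lower (Spry1), where 35.8% were. In that setting mesenchymal Fgfr1 at P0 was past 2-fold over E13.5 and E15.5 (2.14 and 2.13), Spry4 and Dusp6 at P0 were past 2-fold lower than at E13.5, and Fgf7 at E15.5 over E13.5 was not called at 0.520 (0.398 to 0.681).

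The median log2 ratio of all genes ranged from -0.28 to 0.20 over the comparisons of stages in epithelium. In mesenchyme it shifted by -0.42 log2 between E15.5 and P0 and by -0.59 between E13.5 and P0. Relative to the median gene, P0 over E15.5 in mesenchyme was 7.34 for Fgf10, 7.35 for Fgf2, 3.89 for Fgf7 and 0.244 for Dusp6, all past 2-fold as before, while Spry4 at 0.611 was not and Fgfr1 at 2.43 was. From E13.5 to P0, 5 members (Fgf2, Fgf7, Fgf10, Fgfr1, Spry2) were then past 2-fold, not 1. For Fgfr2 in epithelium over mesenchyme at P0 the value relative to the median gene was 1.63, under 2-fold.

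Within tissues, cells were clustered without the FGF genes, separately at each stage, and a cluster was named from marker genes where these allowed it. At E15.5 most Fgf10 and Fgf7 UMIs were in 1 of the 4 mesenchymal clusters. The dermal-like cluster (74 cells) had 3 of the 4 markers Plagl1, Cdkn1c, Fzd4 and Tgfb2 raised. The sub-epithelial-like cluster (87 cells) had 3 of 5 markers raised, none among its 10 leading genes. The dermal-like cluster held 33 of the 40 Fgf10 UMIs, 82.5% (67.2 to 92.7), in 19 cells, and the sub-epithelial-like cluster held 1. The levels were 21.6 CPM (14.9 to 30.3) and 0.463 CPM (0.0117 to 2.58), a ratio of 46.6 (7.80 to 1894.8). Fgf7 went the same way, with 56.2 CPM (45.0 to 69.4) against 8.34 CPM (4.94 to 13.2), and so did Fgf2 with 15 against 6 UMIs. Fgfr1 did not separate them, at 169 and 187 CPM, a ratio of 0.904 (0.770 to 1.06).

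The feedback genes of the same pair of clusters split. Spry4, one of the sub-epithelial-like cluster's 10 leading genes, was 47.2 CPM in sub-epithelial-like and 13.7 CPM in dermal-like cells, a ratio of 3.44 (2.14 to 5.80), and Dusp6 was 94.95 against 37.3 CPM, a ratio of 2.55 (1.89 to 3.48). Spry2 was the reverse, at 113 against 271 CPM, 2.41-fold higher in dermal-like cells (2.05 to 2.83). Median depth was 25137 UMIs in the sub-epithelial-like and 20970 in the dermal-like cells. A further E15.5 mesenchymal cluster of 53 cells, led by keratin genes and left unnamed, held 5 Fgf10 UMIs.

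At E13.5 2 unnamed clusters were split in part the same way. The first (73 cells) had 3 of 4 dermal markers raised and muscle genes such as Myog among its leading genes, and the second (35 cells, led by Enpp2) had 4 of 5 sub-epithelial markers raised. The first held 30 of the 38 Fgf10 UMIs and the second 0, with the other 8 in a proliferative-like cluster, so the level of the first was at least 4.08-fold higher, with an exact lower limit of 3.12. Dusp6 was 11.8 CPM in the first and 48.1 CPM in the second, a ratio of 0.245 (0.120 to 0.483), and Fgf7 had a ratio of 1.84 (1.02 to 3.55), both to the same side as at E15.5. Spry2 at 1.02 (0.743 to 1.42) and Fgf2, with 4 against 6 UMIs, were not apart beyond counting error, and Fgfr1 was lower in the first at 0.535 (0.426 to 0.672). At P0 an unnamed cluster of 47 cells had the highest Fgf10 level, 76.6 CPM (51.7 to 109). Retn, Krt17 and Epcam were among its leading genes, and 4 of 6 markers of Col15a1 fibroblasts, its nearest class, were raised. The Eln-like cluster of 45 cells, with muscle genes among its leading genes, had the lowest level, 7.90 CPM (1.63 to 23.1). Fgf7 was 33.2 to 78.6 CPM over the 5 P0 clusters.

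**Figure D4:**
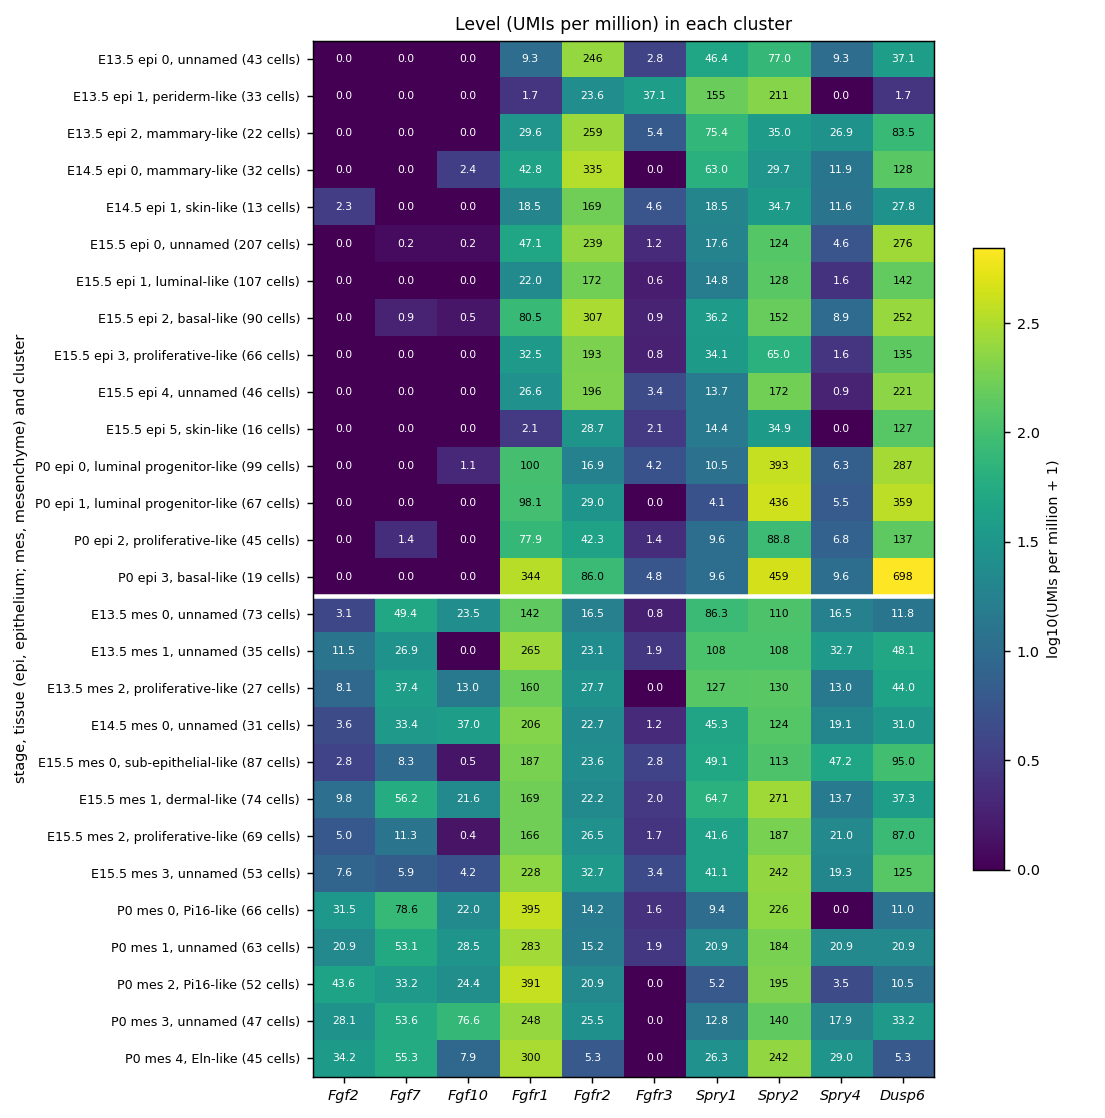
Level in CPM (numbers, and colour as log10 of the level plus 1) of each gene (x axis) in each cluster (y axis, with its stage, tissue, name and cells), epithelial clusters above the white line. Fgf10 is at 21.6 in the E15.5 dermal-like cluster and 0.5 in the sub-epithelial-like one, and Fgfr3 is at 37.1 in the E13.5 periderm-like cluster.

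In the epithelium of E13.5, a periderm-like cluster of 33 cells stood apart. It held 22 of the 27 Fgfr3 UMIs (37.1 CPM, 23.2 to 56.2), in 12 cells, had little Fgfr2 (23.6 CPM), and had 1 UMI of Dusp6 and 0 of Spry4, with Spry1 at 155 CPM and Spry2 at 211 CPM. The mammary-like cluster of 22 cells (Pthlh, Msx1 and Ndnf among its leading genes) had 259 CPM of Fgfr2, 83.5 CPM of Dusp6, 26.9 CPM of Spry4 and 35.0 CPM of Spry2. Periderm-like over mammary-like was 6.89 (1.69 to 60.4) for Fgfr3, 0.0913 (0.0481 to 0.161) for Fgfr2 and 6.02 (3.39 to 11.6) for Spry2. The third cluster, of 43 cells led by Fbln2 and Col17a1 and left unnamed, had 246 CPM of Fgfr2 and 37.1 CPM of Dusp6. So the E13.5 epithelial averages mix these cells, and with the mammary-like cluster alone Spry4 in epithelium over mesenchyme was 1.41 in place of 0.513.

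At E14.5 the mammary-like cluster of 32 cells had 335 CPM of Fgfr2 and 128 CPM of Dusp6, and the skin-like cluster of 13 cells 169 and 27.8 CPM. The skin-like cluster had 3 of 8 skin markers raised. Its leading genes included Krt1 but also the proliferation marker Top2a and the mesenchymal marker Dcn. Median depth was 33728 UMIs there and 25314.5 in the mammary-like cells. At E15.5 the basal-like cluster (90 cells) had more receptor than the luminal-like one (107 cells): Fgfr1 was 80.5 against 22.0 CPM, a ratio of 3.67 (2.75 to 4.93), and Fgfr2 307 against 172 CPM, a ratio of 1.78 (1.59 to 2.00). The name luminal-like is a nearest match. All 6 luminal-like markers were raised there (mean log2 fold 1.81), but so were 3 of 6 periderm markers (mean 1.75). The skin-like cluster of 16 cells had a mean of 2.47 for the luminal-like list. Of the feedback genes, Spry4 (19 against 5 UMIs), Spry1 at 2.44 (1.67 to 3.60) and Dusp6 at 1.77 (1.56 to 2.01) were higher in basal-like cells, and Spry2 at 1.18 (1.02 to 1.37) was under 2-fold, as were Fgfr2 and Dusp6. Dusp6 was not particular to basal-like cells, which made up 16.9% of epithelial cells and held 17.9% of its UMIs. An unnamed cluster of 207 cells (38.9%), with Cd74 among its leading genes, held 45.8% of the Dusp6 UMIs.

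At P0 the basal-like cluster of 19 cells had the highest Fgfr1 and Dusp6 of any epithelial cluster, 344 CPM (269 to 433) and 698 CPM (589 to 821). The luminal progenitor-like clusters of 99 and 67 cells had 100.1 and 98.1 CPM of Fgfr1. Their name is a nearest match: 3 and 2 of 5 markers were raised (mean log2 fold 1.00 and 0.307), with none among the 10 leading genes. The cluster of 45 proliferative cells with Cited1 among its leading genes had 77.9 CPM of Fgfr1. This proliferative cluster also had 4 of 5 mature luminal markers raised. It made up 19.6% of P0 epithelial cells, at a median of 14038 UMIs against 9226 in the library. Yet it held only 7.65% of the epithelial Spry2 UMIs and 12.9% of those of Dusp6. Fgfr1 was the larger share of receptor UMIs in all 4 P0 epithelial clusters, from 64.0% to 82.6%, whereas Fgfr2 was the larger in all 6 E15.5 epithelial clusters, from 79.0% to 88.4%. Basal-like P0 over basal-like E15.5 cells was 4.28 (3.20 to 5.66) for Fgfr1 and 0.280 (0.165 to 0.447) for Fgfr2.

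Single cells were compared after thinning to 5000 UMIs, since depth ran from a median of 8743 UMIs in P0 mesenchyme to 26725 in E14.5 epithelium. The computed share of cells with an Fgfr2 UMI was then 48.1%, 70.6%, 62.7% and 12.98% of epithelial cells from E13.5 to P0, and in 69.4%, 97.8%, 95.5% and 24.3% without thinning. In mesenchyme the thinned shares were 10.0%, 10.4%, 11.2% and 7.70%. For Fgfr1 it was 5.25%, 13.51%, 18.0% and 38.96% of epithelial and 56.0%, 60.5%, 58.2% and 76.6% of mesenchymal cells. Without thinning, 279 of 532 E15.5 epithelial cells had both receptors, 6 had Fgfr1 alone and 229 Fgfr2 alone. At P0, 37 of 230 had both, 101 Fgfr1 alone and 19 Fgfr2 alone. The thinned share with both was 12.2% at E15.5 and 5.59% at P0.

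Without thinning, 19 of 283 E15.5 mesenchymal cells had both Fgf7 and Fgf10, 59 Fgf7 alone and 4 Fgf10 alone. At P0, 19 of 273 had both, 68 Fgf7 alone and 38 Fgf10 alone. The thinned share with both ligands was 0.996% at E15.5 and 2.88% at P0. Also without thinning, an Fgf10 UMI was seen in 8.13% of E15.5 mesenchymal cells and in 0.376% of epithelial cells, which serve as the level of background. Their median depths were 24376 and 24695.5 UMIs.

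**Figure D5:**
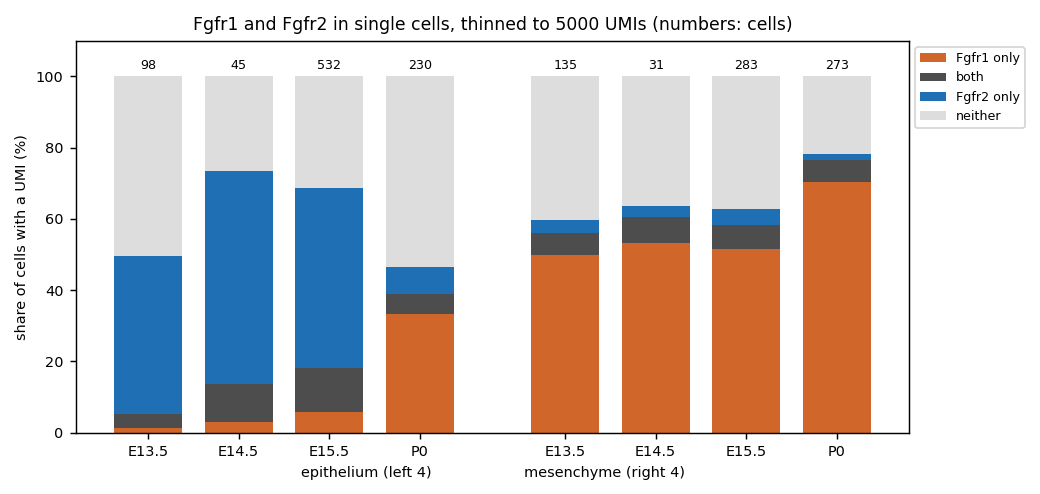
Share of cells (y axis, %) with a UMI of Fgfr1 only, of both receptors, of Fgfr2 only or of neither, computed for cells thinned to 5000 UMIs, for the 4 stages in epithelium (left 4 bars) and mesenchyme (right 4), with the number of cells above. Fgfr2 only is 50.5% of E15.5 epithelial cells and 7.39% at P0, and Fgfr1 only is 5.82% and 33.4%.

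Feedback genes were also set beside receptors cell by cell. In E13.5 epithelium, Dusp6 averaged 48.3 CPM over the 79 cells with a receptor UMI and 1.56 CPM over the 19 without, while Spry2 averaged 105 and 165 CPM. Of the 19 cells without, 17 were in the periderm-like cluster, and the part of this cluster in these values was not tested. Within that cluster Spry2 averaged 261 CPM over 16 cells with and 181 CPM over 17 without, the other way round from all cells, and the other clusters had 2 cells without a receptor UMI. In P0 epithelium the feedback sum averaged 677 CPM over 160 cells with and 721 CPM over 70 cells without a receptor UMI. The other groups did not share 1 order. The feedback sum with and without a receptor UMI was 263 and 251 CPM in E13.5 epithelium, 257 and 257 CPM in E13.5 mesenchyme, 362 and 279 CPM (17 cells without) in E15.5 epithelium, 372 and 303 CPM (11 cells without) in E15.5 mesenchyme, and 250.4 and 147 CPM (27 cells without) in P0 mesenchyme. Each tissue of E14.5 had 1 cell without. Cells with a receptor UMI were deeper, with medians in epithelium of 19880 against 16001 UMIs at E13.5 and 10378 against 9175 at P0, and the part of depth in these values was not tested.

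Genes around the members, from lists of the pathway, were counted as apart where they differed at least 2-fold between tissues at 2 or more stages in 1 direction. Of the 11353 genes measured at 2 or more stages, 14.6% were then higher in epithelium and 20.3% in mesenchyme. Of 19 other ligands, 4 of them measured this often, none was higher in epithelium and 2 were higher in mesenchyme: Fgf18, at 17.9, 13.1, 3.72 and 32.7 CPM in mesenchyme and at most 1.47 CPM in epithelium, and Fgf21. Of 2 other receptors, Fgfrl1, which lacks the kinase domain, was higher in mesenchyme. Esrp1 and Esrp2, splicing factors that favour the IIIb form, were higher in epithelium, with Esrp1 at 184, 109, 132 and 60.1 CPM against at most 3.74 CPM, and the other 2 of the 4 splicing genes were not. Among 20 co-receptors and carriers, 4 were higher in epithelium (Fgfbp1, Fgfbp3, Sdc4, Hs6st1) and 5 in mesenchyme (Sdc2, Gpc3, Gpc6, Flrt2, Hs6st2). Of 18 adaptors and kinases, 3 were higher in epithelium (Gab1, Hras, Nras) and 2 in mesenchyme (Gab2, Plcg1).

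Of 20 other feedback and target genes, 19 of them measured at 2 or more stages, 10 were higher in epithelium and 4 in mesenchyme. The 10 were Spred3, Dusp4, Dusp5, Dusp7, Etv1, Etv4, Etv5, Phlda1, Ier3 and Fosl1. The ETS factor Etv4 had 7.84, 31.4, 16.7 and 6.502 CPM in epithelium and 4.15, 1.19, 6.61 and 0.798 CPM in mesenchyme, and Etv5 69.6, 47.9, 22.9 and 14.9 CPM in epithelium. Dusp5, a nuclear ERK phosphatase, was 37.7, 66.8, 84.2 and 339 CPM in epithelium and 8.72, 14.3, 10.6 and 51.0 CPM in mesenchyme. Etv5 thus was lowest at P0 in epithelium while Dusp5 and Dusp6 were highest there. The 4 on the mesenchymal side were Spred1, Il17rd, Egr1 and Ccnd1, although Ccnd1 was over 2-fold higher in epithelium at P0.

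Of 15 genes for other inputs to ERK, 9 were higher in epithelium and 3 in mesenchyme (Pdgfra, Pdgfrb, Hgf), with Egfr over 2-fold higher in mesenchyme at P0. The EGF family ligand Areg rose in epithelium from 7.35 CPM at E13.5 to 15.7, 72.8 and 1110.4 CPM, while Hbegf had 28.9, 25.1, 68.8 and 407 CPM. Both were highest at P0, as epithelial Spry2 and Dusp6 were, and so were Met, Kit and Tgfa. The other inputs on the epithelial side were not. Egfr had 64.2, 54.2, 56.5 and 29.1 CPM and Erbb2 24.0, 32.2, 20.3 and 12.2 CPM in epithelium, both lowest at P0. Erbb3 (146 CPM) and Epgn (69.9 CPM) were highest at E15.5, with 90.7 and 55.1 CPM at P0. The part of these inputs in the feedback levels was not tested. Of 14 dissociation and stress genes, 2 were higher in epithelium (Hspb1, Zfp36) and 5 in mesenchyme (Fos, Jun, Nr4a1, Hspa1a, Socs3), although Zfp36 was higher in mesenchyme at P0. The stress list summed to 4699.65 to 9346 CPM in epithelium and 6113 to 8933 CPM in mesenchyme, and its part in the levels of Spry2 and Dusp6 was not tested.

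Over the 8 groups of stage and tissue, the genes most like each member by Pearson's r of log2(CPM + 10), among 6149 genes, were Zfp750 for Fgfr2 (r = 0.994), Pmp22 for Fgf7 (0.993), Celf2 for Fgf10 (0.989), Rarres2 for Fgf2 (0.987), Actr3 for Dusp6 (0.986), Nme4 for Spry1 (0.985), Gabrp for Fgfr3 (0.985), Shc1 for Fgfr1 (0.977), Pmepa1 for Spry2 (0.966) and Srm for Spry4 (0.964). Pairs of groups share a library, so these values describe 4 libraries. Gabrp is a periderm marker used to name the E13.5 cluster that held most Fgfr3 UMIs.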

How the data were processed

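Single-cell 3′ RNA-seq was analysed in 1 library per stage of the mouse mammary rudiment or gland. The authors deposited UMI counts per gene and cell barcode, not normalized, made with Cell Ranger on mm10, and every barcode holds at least 500 UMIs. By the matrix headers the E15.5 library was counted with Cell Ranger 3.1.0 and the others with 6.0.0, while the submitters' processing notes give 6.0.0 throughout. The 3 cells with equal marker sums were left out. Genes were matched by identifier, with 30406 in all lists.

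Counts of a gene were summed over the cells of a group and divided by the group's total (CPM). Levels have exact Poisson, ratios exact conditional binomial and shares Clopper-Pearson intervals at 95%. A group at 0 was set to 3 counts for ratios. A gene with at least 20 UMIs in a pair of groups was called past 2-fold. Cells of each stage and tissue were clustered with Seurat 5.3.0 and sctransform 0.4.2 in R 4.3.3 (2000 variable genes without FGF genes, 15 components, resolution 0.8). A cluster was named where 3 markers of a class were detected in at least 0.25 of its cells and 2 were raised by 0.5 log2, unless another class had more markers among its 10 leading genes. Doublets were scored with Scrublet through scanpy 1.11.5 and kept. Scripts ran in Python 3.11.15 with numpy 2.4.6, scipy 1.17.1 and pandas 2.3.3. The ratio intervals were run on simulated Poisson counts, the case they assume. That run checks the code only, since uneven levels between cells were not simulated.

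All 10 members are named, other genes by the 2-fold rule at 2 stages, and for likeness the top gene of those with a mean of at least 20 CPM, other members and predicted genes left out. The members and lists were chosen with earlier results of these data known. Alternatives were another UMI minimum (3000), mitochondrial maximum (10%), UMI minimum per gene (50), equal weight per cell, a stricter tissue rule (10 marker UMIs and 5 times the other sum), other tissue markers, no doublets, matching by symbol, and for clusters resolution 0.4, log-normalization and FGF genes kept. Chosen after seeing the data were P0 over E13.5, CPM over the genes in all lists and ratios relative to the median gene. So was leaving out 8 clusters that were skin-like, periderm-like or had genes of another tissue among their leading genes. Clusters with muscle genes among theirs were kept, as were an E13.5 mesenchymal cluster with Sostdc1 and a P0 one with Pecam1.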

Additional observations from a re-analysis of the deposited data

Results flagged for a closer look

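Spry2 was flagged because its level in epithelium over mesenchyme lay on opposite sides of 1 at different stages, with intervals that leave out 1. The ratio was 0.253 (exact 95% interval 0.171 to 0.368) at E14.5, 0.626 (0.583 to 0.673) at E15.5 and 1.63 (1.46 to 1.82) at P0. Relative to the median gene it was 0.249, 0.672 and 1.32. The P0 value does not describe each cluster: the proliferative one with Cited1, 19.6% of epithelial cells, held 65 of the 850 Spry2 UMIs. The difference between stages was not tested, since each stage has 1 library.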

How the results depend on the processing

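No paired analysis was possible because each stage has 1 library. Under 9 alternatives that changed cells, tissues, weights, matching or scaling, the members and the feedback sum were compared again between tissues at each stage. So were E15.5 over E13.5, P0 over E15.5 and P0 over E13.5 within tissues. None of these ratios whose interval leaves out 1 moved to the other side of 1. Matching by symbol could not move them, since each member has 1 row and was summed in the same way. CPM over the genes in all lists could move them little, as only 0.116% to 0.740% of a group's UMIs lay outside those genes. Steps through E14.5 and the receptor sum were not put through these alternatives. Some pairs of clusters were checked, under the cluster alternatives and the mitochondrial maximum. Without 8 clusters, chosen after seeing the data, Spry4 in E13.5 epithelium over mesenchyme became 1.41 (from 0.513) and Fgfr2 in epithelium at E15.5 over E13.5 became 0.871 (from 1.18). In the same setting, mesenchyme over epithelium was at least 1.95 for Fgf10 at E13.5 (from 10.7) and 5.85 at E13.5 (from 16.1) and 3.98 at E15.5 (from 4.47) for Fgfr1, Fgfr2 in epithelium over mesenchyme at E13.5 was 12.5, and the feedback sum ratio was 1.06 at both E14.5 and E15.5. Fewer cells enter that setting. Relative to the median gene, Fgfr1 in mesenchyme over epithelium at P0 was 3.64, and the feedback sum in epithelium over mesenchyme was 1.02 at E13.5, 1.08 at E15.5 and 2.14 at P0.

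Counts of members past 2-fold moved most at P0. Those higher in P0 epithelium than in mesenchyme went from 2 to 1 with 3000 UMIs per cell, equal weight per cell, strict tissue markers, no doublets or scaling to the median gene, since Fgfr2 at 2.01 lies at the threshold. In mesenchyme at P0 over E13.5, members higher went from 1 to 2 with 3000 UMIs or without 8 clusters and to 5 relative to the median gene, and members lower from 1 to 2 with equal weight, strict markers or no doublets and to 3 without 8 clusters. In mesenchyme at E15.5 over E13.5, members lower went from 3 to 1 with equal weight or relative to the median gene, and members higher from 1 to 2 with up to 10% mitochondrial UMIs. With 50 UMIs per gene, members higher in E13.5 epithelium went from 2 to 1 and lower in E14.5 epithelium from 4 to 2. The causes were not tested. With 1 library per stage, depth cannot be told apart from stage, and its part was not tested. E14.5, with 76 cells, is the least precise.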
